A study of Homo sapiens with 6 samples.

Results

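Sites antisense to coding exons were places where sequence reads aligned to the strand opposite a protein-coding exon although no gene is annotated on the strand the reads came from. A site was a run of overlapping uniquely mapping reads in the site tables of a PAR-CLIP study of background binding, and it was kept if it held 5 or more reads on a nuclear chromosome, shared at least 1 bp with a GENCODE coding exon on the other strand and shared no base with any gene body on its own strand. Of 2640448 nuclear sites with 5 or more reads in 6 libraries, 9634 met this rule, and they merged into 7791 separate loci opposite 5102 genes (27.6% of the 18500 genes that could hold such a site). Their deposited sequences equalled the GRCh37 assembly in 9634 of 9634 cases, and 7376 of them (76.6%) lay wholly inside coding sequence. They were 12 to 146 bases long, 4825 were on the plus strand and 183 lay opposite more than 1 gene.

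The libraries came from HEK293, a human embryonic kidney cell line, and the immunoprecipitated ones from lines stably carrying a doxycycline-inducible FLAG-tagged protein. All cells were fed 4-thiouridine (4SU) and irradiated with long-wave ultraviolet light, and lysates or RNA were cut with RNase T1. Libraries G20, G35 and G45 were gel slices at about 20, 35 and 45 kDa from a FLAG M2 immunoprecipitation of GFP, a protein not known to bind RNA, and are the background controls. HuR replicate 1 and HuR replicate 2 came from FLAG M2 immunoprecipitation of HuR, an RNA-binding protein that prefers U-rich sequence, and Total was RNA from lysate treated like the others but without immunoprecipitation, then depleted of rRNA. Each slice and the Total sample was 1 library, the slices share a control, and nothing in the labels says that the HuR replicates came from separate cultures, so spreads between libraries may be technical.

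A coding exon is read by the cell on 1 strand, and RNA from the other strand can come from antisense genes, from promoters that fire in both directions or from transcription that runs past the end of a neighbouring gene. RNase T1 cuts RNA after G, which leaves fragments that end in G and follow a G in the transcript. In PAR-CLIP, 4SU that was crosslinked to protein is read as C in place of T, so a T-to-C conversion within a read marks a possible contact. Reads opposite a coding exon are also a yardstick for how reads of a library distribute over strands.

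The loci chosen for their recurrence and for their read numbers are printed here because the values below turn on them. The first 5 were present in all 6 libraries with the highest level in their weakest library, and the other 3 held the most reads of any antisense site in at least 1 library. Each sequence is GRCh37 reference sequence of the antisense strand, 5′ to 3′, with capitals marking T, the base at which a conversion can be read. Each line covers the sites of all libraries merged, and the site of a single library could be shorter.
NUAK2, chr1:205277827-205277844, plus strand: aTgacgaTcacgaTcTTg
IKBKE, chr1:206646629-206646653, minus strand: TTgcgggccTTgTacacacTggcag
FRRS1, chr1:100206349-100206372, plus strand: TggTTTggTTaagTgggaaacggg
VEGFA, chr6:43745236-43745254, minus strand: TcgaTTggaTggcagTagc
ANTXRL, chr10:47678043-47678064, minus strand: aTTgTcgaTacTggTTggcTTT
LRRC15, chr3:194080242-194080264, plus strand: ggcTggTTagcTcagTggTagaa
AMOT, chrX:112022759-112022782, plus strand: TTTTgTTcgaTTccgTcccacgTT
TEDC1, chr14:105957836-105957851, minus strand: gacggTcgaacTTggc

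The printed loci were 16 to 25 bases long. The IKBKE and TEDC1 loci lay opposite the first coding exon of the gene's longest coding transcript, the LRRC15 locus opposite the last, and the others opposite internal exons. LRRC15 encodes a leucine-rich repeat membrane protein, IKBKE a kinase of innate immune signalling, NUAK2 a kinase related to AMPK, VEGFA an angiogenic growth factor and AMOT angiomotin. Upstream on their own strands, the nearest annotated gene end was 17796 bp away for the IKBKE locus and farther for the other 7.

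The site tables held between 6187300 reads (G35) and 38644636 reads (G20) per library, so that 3 reads, the most that a count of 0 allows, stood for 0.0776 reads per 1000000 reads of the library's table (RPM) in G20 and 0.485 RPM in G35. HuR replicate 2 stood apart in its number of sites, with 1940367 of 5 or more reads compared to 71826 to 336759 in the other libraries. Reads carried no molecular identifiers, so the 95% Wilson intervals given here cover counting error only and compare single libraries.

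Antisense sites were a small but uneven share of each library. They numbered 665 in G20, 1100 in G35, 1024 in G45, 1323 in HuR replicate 1, 4714 in HuR replicate 2 and 808 in Total. As a share of all nuclear sites with 5 or more reads this was 0.926% (0.858 to 0.999) in G20, 1.05% (0.991 to 1.11) in G35, 1.12% (1.05 to 1.19) in G45, 1.39% (1.32 to 1.46) in HuR replicate 1, 0.243% (0.236 to 0.24997) in HuR replicate 2 and 0.240% (0.224 to 0.257) in Total. HuR replicate 2 and Total were thus alike and the other 4 libraries higher, with the HuR replicates on either side of the 3 slices. The slices averaged 1.03% ± 0.0978 (SD, n = 3) and the HuR replicates 0.816% ± 0.810 (SD, n = 2), a difference of 0.216 percentage points that was within the spread between libraries (exact two-sided permutation test, p = 0.8; Benjamini-Hochberg adjusted over 2 measures, 0.8), where 0.1 is the smallest p that 3 libraries against 2 can give.

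The reads on the antisense strand were next set against the reads on the coding strand. Sense coding sites were defined in the mirror image, as sites of 5 or more reads that share a base with a coding exon on their own strand and none with a gene on the other, and there were 116867 of them. Antisense sites held 25011 reads in G20, or 8.07 antisense reads per 100 sense coding reads. The same ratio was 45.5 in G35, 48.9 in G45, 84.4 in HuR replicate 1, 20.6 in HuR replicate 2 and 0.987 in Total. RNA that had not been immunoprecipitated thus had the fewest antisense reads per sense read, and HuR replicate 1 approached parity between strands. The slices averaged 34.2 ± 22.7 (SD, n = 3) and the HuR replicates 52.5 ± 45.1 (SD, n = 2), which overlapped (exact two-sided permutation test, p = 0.6; adjusted, 0.8). A few sites carried much of this signal, since the 10 antisense sites with the most reads held 26.04% (HuR replicate 2) to 49.5% (G35) of all antisense reads, while the median site held 6 to 12 reads.

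**Figure D1:**
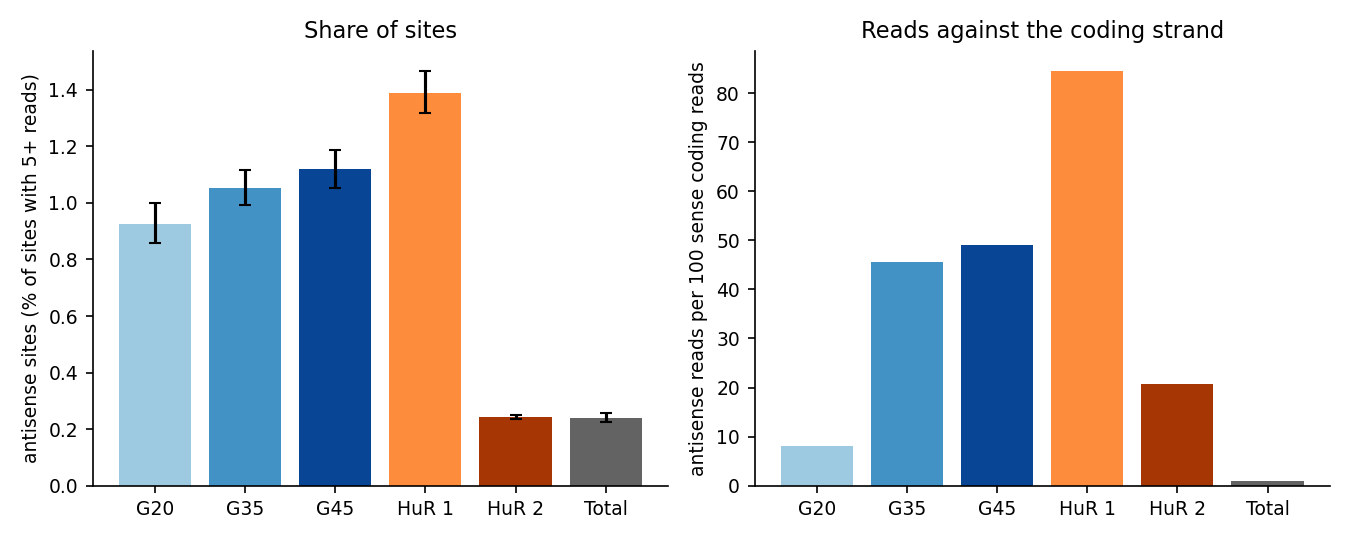
Left, antisense sites as a percentage of each library's nuclear sites of at least 5 reads, with 95% Wilson intervals as error bars; right, antisense reads per 100 sense coding reads. HuR 1 and HuR 2 are the HuR replicates; the share is highest in HuR replicate 1 (1.39%) and lowest in HuR replicate 2 and Total, and the read ratio runs from 0.987 in Total to 84.4 in HuR replicate 1.

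In the immunoprecipitated libraries the shortest sites were nearly balanced between the strands and long sites were not. Among sites of up to 15 bases at coding exons, the antisense strand held 54.8% of antisense and sense sites together in G20, 56.2% in G35, 52.9% in G45, 55.3% in HuR replicate 1 and 58.2% in HuR replicate 2, but 19.4% (15.95 to 23.4) in Total. The lower bound of the interval was above 50% in G35, HuR replicate 1 and HuR replicate 2. The intervals of G20 (39.9 to 68.8) and G45 (43.3 to 62.3) were wide, from 23 and 54 antisense sites. Sites of 16 to 20 bases were more numerous, and there the share was 51.8% in G20, 51.9% in HuR replicate 1 and 2.95% in Total. It was below balance in G35 (42.0%, 39.7 to 44.2), G45 (44.9%, 42.6 to 47.2) and HuR replicate 2 (39.1%, 38.0 to 40.3). Among sites of over 40 bases the share was 0.968% in G20, 1.504% in G35, 1.56% in G45, 2.01% in HuR replicate 1, 3.92% in HuR replicate 2 and 0.328% in Total. The share fell from each length class to the next in 6 of 6 libraries. These length classes were chosen after the lengths had been seen.

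**Figure D2:**
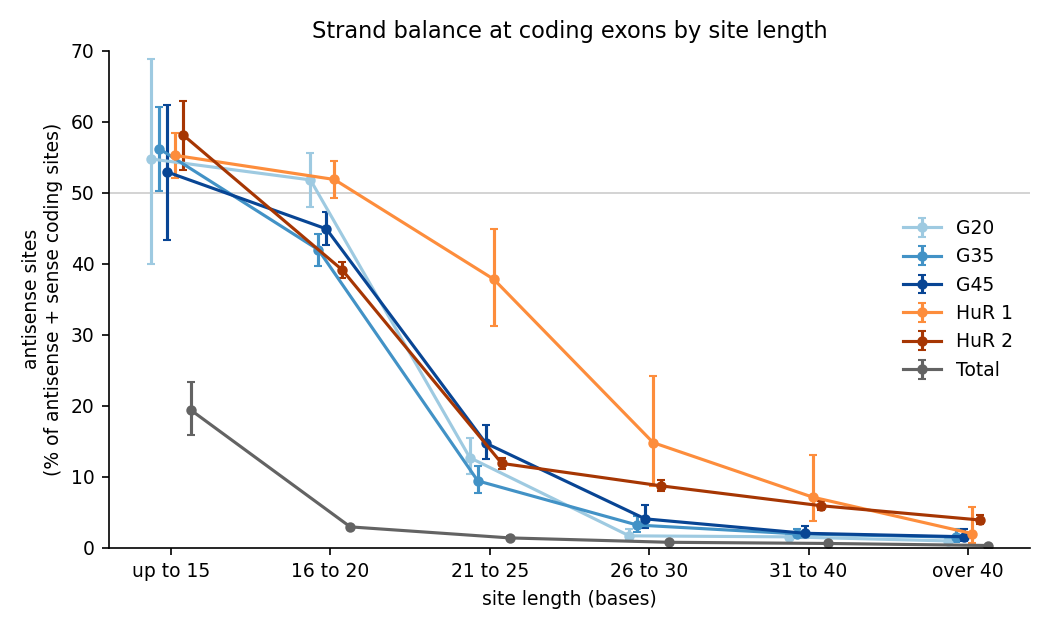
Antisense sites as a percentage of antisense and sense coding sites together, by site length in bases, with 1 line per library and 95% Wilson intervals as error bars. The 5 immunoprecipitated libraries start near the grey line at 50% for sites of up to 15 bases and fall to between 0.968% and 3.92% above 40 bases, while Total starts at 19.4%.

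The median antisense site was 20 bases long in G20, 18 in G35, 18 in G45, 16 in HuR replicate 1, 19 in HuR replicate 2 and 20 in Total. The median sense coding site was 51, 30, 28.5, 17, 26 and 30 bases long in the same libraries. Antisense sites were thus the shorter set in 6 of 6 libraries, by 1 base (HuR replicate 1) to 31 bases (G20), with a mean difference of -11.9 bases ± 10.1 (SD, n = 6). The exact paired permutation test gave p = 0.03125, the smallest that 6 libraries allow, and 0.156 after adjustment over the 5 paired measures. Sites of up to 20 bases numbered 6810 (70.7% of antisense sites), and those of over 30 bases 875 (9.08%).

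The length of the antisense sites went with the base at which they ended. The last base was G in 30.9% of sites of up to 20 bases in G20, 31.5% in G35, 29.5% in G45 and 32.5% in HuR replicate 1, compared to 25.4% of 20-base windows laid end to end opposite coding exons. In HuR replicate 2 and Total the same short sites ended in G in 78.0% and 81.0% of cases. Short antisense sites of the slices and HuR replicate 1 therefore ended in G little more often than the reference windows, and those of the other 2 libraries mostly did. Sites of over 30 bases ended in G in 93.5% of cases in G20, 90.2% in G35, 68.6% in G45, 58.3% in HuR replicate 1, 94.9% in HuR replicate 2 and 97.7% in Total. Sense coding sites of all lengths ended in G in 92.3%, 79.6%, 77.0%, 49.8%, 92.8% and 97.5% of cases, in the same order of libraries. Among the long antisense sites only 51, 35 and 12 came from G35, G45 and HuR replicate 1.

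Long antisense sites also lay closer downstream of other genes than short ones. Of the 1471307 reference windows, 2.20% had the annotated end of a gene on their own strand within 1 kb upstream and a further 20.1% within 1 to 10 kb. Antisense sites of up to 20 bases had nearly the same distribution, with 2.66% and 21.95%. Sites of 21 to 30 bases had 8.88% and 41.3%, and sites of over 30 bases 17.9% and 55.8%. For the long sites of single libraries, 26.6% in G20, 13.7% in G35, 2.86% in G45, 8.33% in HuR replicate 1, 16.1% in HuR replicate 2 and 17.7% in Total were within 1 kb. G45, with 35 such sites, was near the windows in this class only. A further 51.4% of its long sites were within 1 to 10 kb, above the windows as in the other libraries. Of the long sites within 10 kb of such a gene end, 504 of 645 (78.1%) followed a protein-coding gene, compared to 1032 of 1676 (61.6%) of the sites of up to 20 bases. The start of an opposite-strand protein-coding gene lay within 1 kb of 7.67% of antisense sites in G20, 8.45% in G35, 7.32% in G45, 10.1% in HuR replicate 1, 4.31% in HuR replicate 2 and 8.17% in Total, compared to 7.63% of windows. The libraries thus fell on both sides of the windows, with HuR replicate 2 the lowest.

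**Figure D3:**
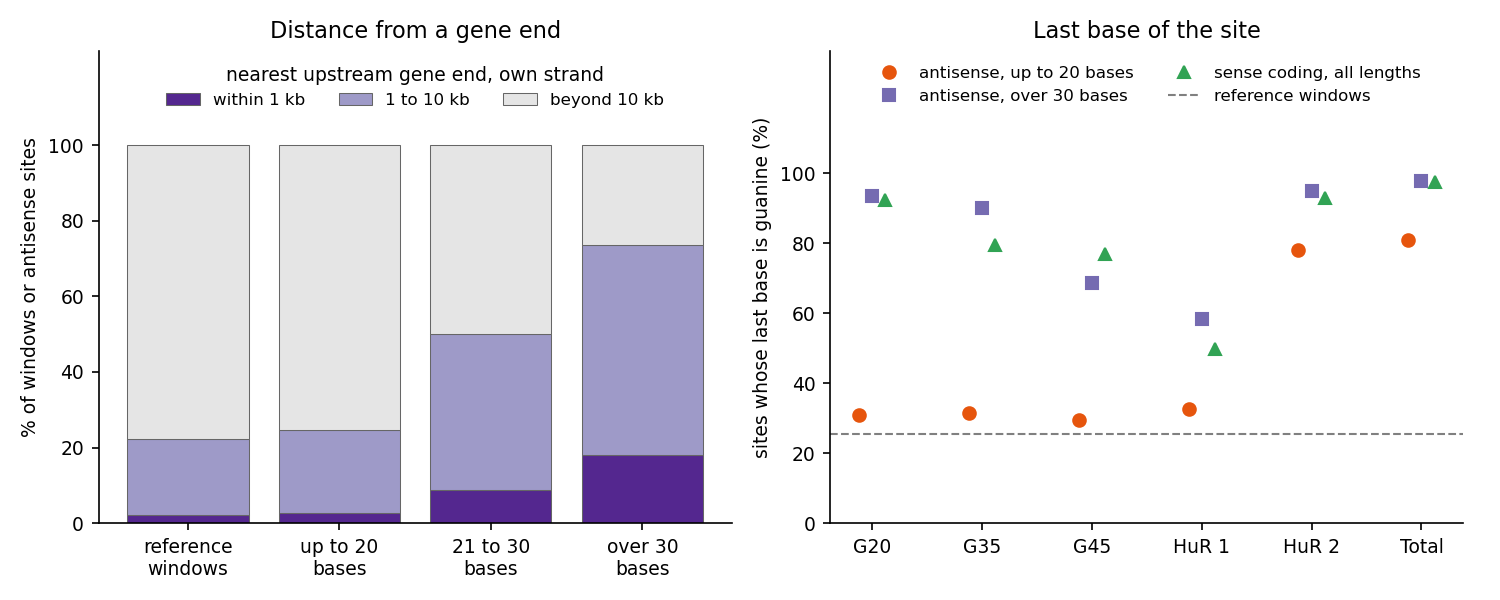
Left, distance from the nearest upstream gene end on the own strand for reference windows opposite coding exons and for antisense sites of 3 length classes, pooled over libraries, as stacked percentages; right, percentage of sites whose last base is guanine by library. The class within 10 kb of a gene end grows with site length, and the short antisense sites of G20, G35, G45 and HuR 1 sit just above the dashed line of the reference windows at 25.4%.

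For each of the 5 genes with the most antisense loci, all sites had the same nearest upstream gene on their strand. Distances and site lengths differed between the genes. Members lie outside genes on their own strand, so sites opposite 1 gene will often share this neighbour. Whether the reads came from these neighbours was not tested. LONP1, the mitochondrial Lon protease (coding span chr19:5692004-5720143), had 29 loci from 50 sites on the plus strand, 38 of them over 30 bases long. All 50 lay downstream of RPL36, a protein of the large ribosomal subunit, at 57 to 22373 bp from its annotated end. Of these sites 20 were in G20, 1 in G35, 1 in G45, none in HuR replicate 1, 8 in HuR replicate 2 and 20 in Total, with 5 to 50 reads each. G20 and Total thus held most of them.

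MAP3K12, a kinase of axonal stress signalling (coding span chr12:53874969-53881175), had 19 loci from 26 sites, all downstream of PCBP2, a poly(C)-binding protein, at 17 to 6001 bp. They fell into G20 (4 sites), G35 (2), HuR replicate 2 (12) and Total (8). IL12RB2, a subunit of the interleukin-12 receptor, had 15 loci from 19 sites downstream of SERBP1, an mRNA-binding protein, at 11737 to 76988 bp, of which 10 were in HuR replicate 2 and 7 in Total. CCDC73 had 17 loci, all 17 from HuR replicate 2, at 4876 to 69682 bp from the end of the translation initiation factor gene EIF3M, and 3 of them were over 30 bases long (median 25). SHOC1, a meiotic recombination gene, had 15 loci at 21394 to 86109 bp downstream of DNAJC25-GNG10, with 13 of its 15 sites in HuR replicate 2 and a median length of 22 bases. In HuR replicate 1 these 5 genes had 1 site in all.

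Across all antisense sites of over 30 bases within 10 kb of an upstream gene end, RPL36 led with 15 loci opposite LONP1. COG8, of the Golgi tethering complex, followed with 10 loci opposite VPS4A, an ATPase of membrane scission, and the overlapping gene model ENSG00000260914. PCBP2 had 9 loci, STUB1, a ubiquitin ligase, had 9 opposite JMJD8 and WDR24, and TMEM208 had 7 opposite FHOD1. Of the 765 loci whose sites were all over 30 bases long, none was found in more than 3 libraries. The locus at chr12:53878854-53878904 opposite MAP3K12 had 7 reads in G20, 9 in HuR replicate 2 and 6 in Total, and that at chr16:69350249-69350344 opposite VPS4A 8, 12 and 5 in the same libraries.

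Antisense sites lay along coding sequence much as the windows did. Internal coding exons held 68.1% of sites and 66.5% of windows, the first coding exon 8.64% and 9.59%, and the last 15.1% and 13.8%. Sites of over 30 bases were in the last coding exon in 22.3% of cases. Genes with a single coding exon held 3.51% of sites and 5.74% of windows.

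The base composition of antisense sites followed their library. G made up 38.3% of site bases in G20, 33.1% in G35, 31.7% in G45, 33.1% in HuR replicate 1, 20.98% in HuR replicate 2 and 19.3% in Total, compared to 26.2% of the windows opposite coding exons. The slices and HuR replicate 1 were above the windows and the other 2 libraries below. Sense coding sites had 34.8%, 29.99%, 30.2%, 28.1%, 23.4% and 22.2% G in the same order. The antisense sites therefore exceeded the sense sites in 4 of 6 libraries, by a mean of 1.29 percentage points ± 3.26 (SD, n = 6), which did not pass the test (exact paired permutation test, p = 0.375; adjusted, 0.375). The mean was 0.547 without HuR replicate 1 and 2.03 without HuR replicate 2.

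T made up 19.1%, 24.1%, 24.9%, 21.8%, 33.0% and 22.8% of antisense bases from G20 to Total. HuR replicate 2 was the only library above the 25.6% of the windows. The difference from sense sites was 1.82 percentage points ± 2.70 (SD, n = 6), positive in 5 of 6 libraries and negative in HuR replicate 1 (exact paired permutation test, p = 0.156; adjusted, 0.260). A was lower in antisense than in sense sites in 6 of 6 libraries, with differences of -1.33 (Total) to -6.77 (G45) percentage points, a base that was not among the measures tested.

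Runs of a single base were counted in the first 20 bases of sites that long, on the site's own strand only. From G20 to Total these were 362, 248, 273, 160, 2062 and 423 antisense sites. GGGG was present in 25.97% of antisense sites in G20, 18.95% in G35, 14.7% in G45, 10.6% in HuR replicate 1, 11.1% in HuR replicate 2 and 6.38% in Total, compared to 7.60% of windows. Sense coding sites held it in 13.0%, 10.5%, 9.14%, 6.41%, 7.43% and 5.43% of cases. The antisense share was above the sense share in 6 of 6 libraries. All nuclear sites of this length held GGGG in 19.1%, 10.9%, 8.44%, 5.77%, 5.83% and 3.37% of cases, in the same order. TTTTT was present in 12.9% of antisense sites in HuR replicate 2 and in 0.552% to 2.13% in the other 5 libraries, compared to 2.39% of windows, and in 12.3% of the sense sites of HuR replicate 2. Over all nuclear sites it was present in 1.63% in G20, 12.1% in G35, 16.9% in G45, 13.2% in HuR replicate 1, 21.6% in HuR replicate 2 and 4.71% in Total. The antisense share was below this in each library. So was the share of sense coding sites, at 0.317% in G20, 1.56% in G35, 1.37% in G45, 5.61% in HuR replicate 1 and 1.21% in Total.

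**Figure D4:**
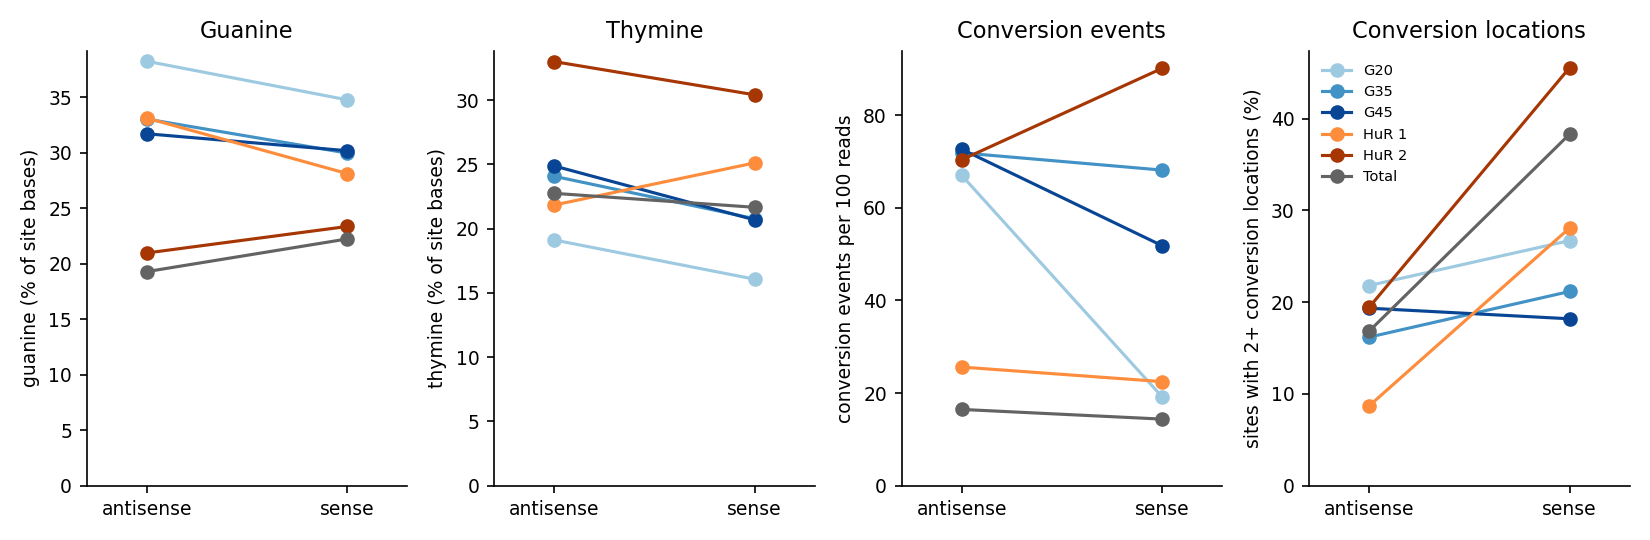
Guanine and thymine as percentages of site bases, conversion events per 100 reads, and the percentage of sites with 2 or more conversion locations, for antisense and sense coding sites, with 1 line per library. No measure moves the same way in all 6 libraries, and guanine is higher in the antisense sites of G20, G35, G45 and HuR 1 and lower in those of HuR 2 and Total.

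Antisense reads carried T-to-C conversions in each library. Summed over sites there were 67.0 conversion events per 100 reads in G20, 71.9 in G35, 72.7 in G45, 25.6 in HuR replicate 1, 70.4 in HuR replicate 2 and 16.5 in Total. Sense coding sites had 19.2, 68.2, 51.8, 22.5, 90.1 and 14.4. The antisense value was thus above the sense value in 5 libraries, most of all in G20, and below it in HuR replicate 2. In G20 this gap went with site length. Sites of up to 20 bases had 48.8 antisense and 60.3 sense events per 100 reads, and sites of over 30 bases 17.1 and 15.7. Antisense was higher at 21 to 25 bases (93.4 and 47.9), a class that includes the LRRC15 locus with 6353 events, and at 26 to 30 bases (31.7 and 13.8). The mean difference was 9.65 events per 100 reads ± 22.7 (SD, n = 6; exact paired permutation test, p = 0.281; adjusted, 0.352). Leaving out each library's 10 deepest antisense and 10 deepest sense sites, it was 2.43, and without HuR replicate 2 it was 15.5.

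Single sites mostly carried either no conversion or at least 0.9 events per read, a class that includes sites with more than 1. No conversion was seen at 37.6% of antisense sites in G20, 40.2% in G35, 33.0% in G45, 61.5% in HuR replicate 1, 43.1% in HuR replicate 2 and 52.8% in Total. At least 0.9 events per read were seen at 34.1%, 51.8%, 50.9%, 21.6%, 49.4% and 8.54%. The class in between held 7.45% (HuR replicate 2) to 38.6% (Total) of sites, and in Total it was larger than the highly converted class. Total and HuR replicate 1 thus had the lowest shares of highly converted antisense sites.

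Conversions at 2 or more positions were less frequent at antisense than at sense sites in 5 of 6 libraries. The antisense shares were 21.8%, 16.2%, 19.3%, 8.69%, 19.4% and 16.8% from G20 to Total, and the sense shares 26.7%, 21.2%, 18.2%, 28.1%, 45.5% and 38.3%. The mean difference of -12.6 percentage points ± 11.1 (SD, n = 6) did not pass the test (exact paired permutation test, p = 0.0625; adjusted, 0.156). Among sites of over 30 bases only, 65.4% of antisense and 71.8% of sense sites of HuR replicate 2 had 2 or more such positions. With sites of over 20 bases only, an alternative chosen after seeing the data, the mean difference was -4.68 percentage points, with 3 of 6 libraries positive (exact paired permutation test, p = 0.656; adjusted, 0.688). Among sites of up to 20 bases the antisense share was the higher in G20, G35 and G45 (14.8%, 12.7% and 13.7%, compared to 11.8%, 9.39% and 9.05%), nearly equal in HuR replicate 1 (6.12% and 6.04%) and the lower in HuR replicate 2 and Total.

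Most antisense loci were found in 1 library. Of 7791 loci, 6900 had a site of 5 or more reads in a single library, 432 in 2, 168 in 3, 123 in 4, 138 in 5 and 30 in 6. Loci in 2 or more libraries were therefore 891, or 11.4%, compared to 20.2% of sense coding loci and 8.90% of all nuclear loci. Without HuR replicate 2 there were 659 such loci, or 17.9%. At the other end, 0.385% of antisense loci were in all 6 libraries, compared to 0.0871% of sense coding loci and 0.0946% of all loci. HuR replicate 2 alone accounted for 4108 of the loci in 1 library.

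By library, 65.1% (61.4 to 68.6) of antisense sites of G20 shared a base on the same strand with a site of another library, against a background of 69.6% of all its nuclear sites. The share was 45.3% against 48.9% in G35, 56.6% against 59.9% in G45, 32.8% against 66.3% in HuR replicate 1, 12.9% against 9.35% in HuR replicate 2 and 24.9% against 36% in Total. The intervals lay below the background in the slices (42.4 to 48.2% in G35, 53.6 to 59.6% in G45), HuR replicate 1 (30.3 to 35.4%) and Total (22.02 to 27.97%), and above it in HuR replicate 2 (11.97 to 13.9%). The gap was a few percentage points in the slices and widest in HuR replicate 1. Sites with 25 or more reads recurred in 91.4% of cases in G20, 97.7% in G35, 99.0% in G45 and 80.8% in HuR replicate 2. The share was 50.2% in HuR replicate 1 and 48.5% in Total. The share over all nuclear sites of that depth was not counted.

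Of 261 antisense loci present in all 3 slices, 225 (86.2%) were also in HuR replicate 2, 171 (65.5%) in HuR replicate 1 and 42 (16.1%) in Total. The shares over all nuclear loci in the 3 slices were close to these, at 89.2%, 59.9% and 18.8%, and those over sense coding loci were 76.2%, 30.6% and 69.7%. Both HuR replicates held 266 antisense loci in common, and 41 of these (15.4%) were in none of the slices, compared to 64.3% of all nuclear loci and 42.7% of sense coding loci in both replicates. The commonest combination of more than 1 library was all 3 slices with both HuR replicates and without Total, with 123 loci.

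The locus opposite LRRC15, printed above, had the most reads of any antisense site in G20, G35, G45 and HuR replicate 2. It held 4477 reads in G20, 9237 in G35, 9493 in G45, 1882 in HuR replicate 1 and 6768 in HuR replicate 2, and in Total it had 2 reads and so no site. Scaled to the library, this was 115.9, 1493, 1259, 197.6 and 210.8 RPM. Its conversion rate hardly moved between libraries, at 138 to 151 events per 100 reads, so reads carried more than 1 conversion on average. No sense coding site was found for LRRC15 in any of the 6 libraries. The tables give no single reads, so whether the reads placed at loci as short as these came from RNA of that position was not tested.

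The IKBKE locus held 308 reads in G20, 242 in G35, 1001 in G45, 2064 in HuR replicate 1, 550 in HuR replicate 2 and 48 in Total. Its events per 100 reads were 89.9, 84.3, 88.7, 59.0, 87.5 and 37.5. It was thus highly converted in the slices and HuR replicate 2 and less so in the other 2 libraries. The NUAK2 locus held 275, 764, 557, 212, 433 and 1024 reads from G20 to Total. It had no conversion event in 5 libraries, where the site spanned 13 or 14 bases. In Total, where the site spanned 18, it had 11.2 events per 100 reads. Whether these conversions lay in bases that only the longer site of Total covered was not tested. The VEGFA locus held 146, 738, 621, 21, 417 and 32 reads, with fewer than 1 event per 100 reads in each library.

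FRRS1, a ferric reductase, had 187, 268, 399, 786, 177 and 35 antisense reads at its locus, with 14.2 to 58.2 events per 100 reads in the immunoprecipitated libraries and none in Total. ANTXRL, an anthrax toxin receptor-like gene, had 32, 30, 83, 321, 84 and 31. HuR replicate 1 was the highest library for both loci. The level in the slices and in the HuR replicates overlapped at the IKBKE, NUAK2, FRRS1 and VEGFA loci in RPM. At the ANTXRL locus it also overlapped, with 0.828 to 11.01 RPM in the slices against 33.7 and 2.62 in the HuR replicates.

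Some loci belonged almost wholly to 1 library. The AMOT locus held 12968 reads in HuR replicate 1 and 24 in G20, 45 in G35, 57 in G45, 15 in HuR replicate 2 and 16 in Total. In RPM that was 1361 in HuR replicate 1 and 0.445 to 7.56 elsewhere, so the HuR replicates did not resemble each other there. The TEDC1 locus, opposite a gene of the tubulin epsilon and delta complex, held 2317 reads in Total, none of them converted, and 1 read in HuR replicate 1.

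**Figure D5:**
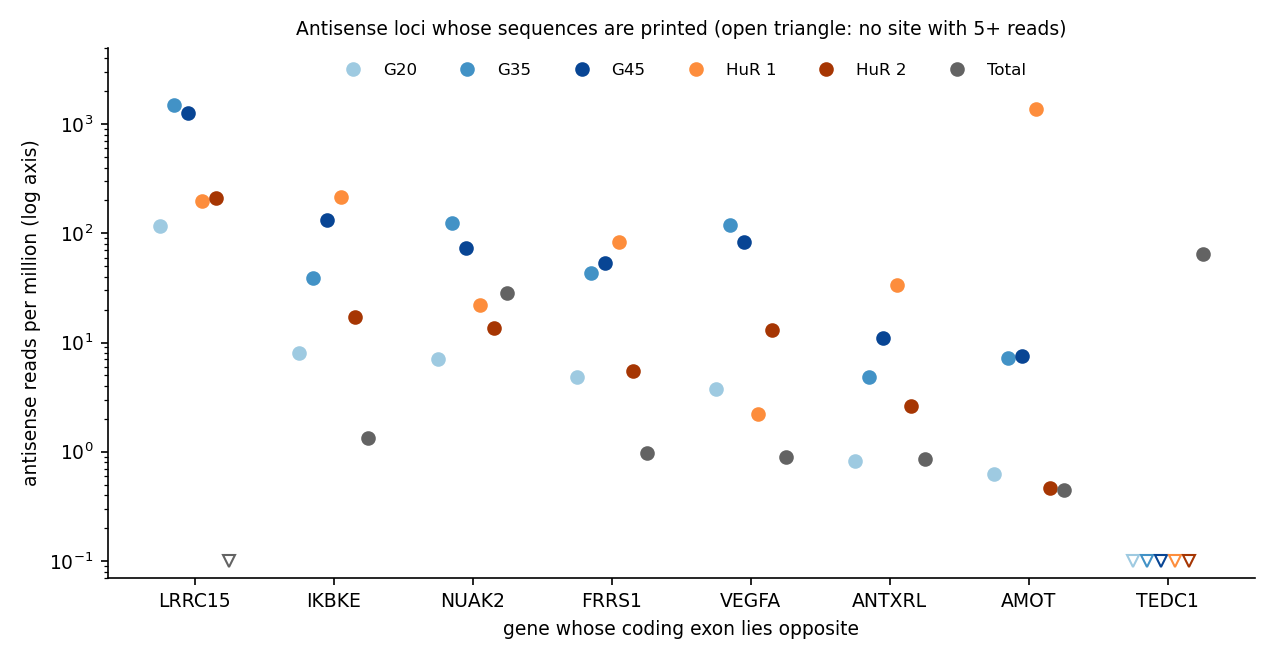
Antisense reads in RPM, on a log axis, at the 8 loci whose sequences are printed, with 1 point per library and an open triangle at the bottom where a library had no site with 5 or more reads. Total is absent at LRRC15 and alone at TEDC1, and HuR replicate 1 stands at 1361 at AMOT, where the other libraries are at 7.56 or below.

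The 10 genes with the most antisense reads, by mean RPM over the 6 libraries, were LRRC15 (546.0), RTP5 (293.4), AMOT (229.7), IL16 (141.6), DUOX1 (105.1), MYBL1 (96.1), FBXO21 (91.8), METTL27 (91.1), ABCC4 (73.9) and RPE65 (71.8). For each of the 10 a single locus held nearly all of the reads. RTP5, of a receptor transporter family, had 1907, 5855, 4487, 705, 3063 and 0 reads from G20 to Total at a locus of 24 bases, with 1.31 to 1.99 events per 100 reads. IL16, a cytokine, had 963, 1814, 2416, 1581, 1427 and 9 at its leading locus, with at most 0.415 events per 100 reads. Together with LRRC15 these loci were high in all slices and near or at 0 in Total.

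MYBL1, a MYB-family transcription factor, had 694, 1041, 1743, 1285, 781 and 0 antisense reads, with 100 to 100.2 events per 100 reads in 5 libraries, or 1 conversion in nearly every read. ABCC4, an efflux transporter, had 452, 267, 1229, 2062, 289 and 1, with 89.3 to 100 events per 100 reads. FBXO21, an F-box protein of ubiquitin ligases, had 972, 1128, 1894, 289, 1961 and 19, with 1.38 to 3.26 in the immunoprecipitated libraries. Within each of these 3 loci the rate differed by less than 3 events per 100 reads between the slices, and FBXO21 was far below the other two in each of them.

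HuR replicate 1 set the rank of 3 further genes. DUOX1, an oxidase that makes hydrogen peroxide, had 5870 antisense reads at its locus in HuR replicate 1 and 3, 55, 26, 21 and 1 in G20, G35, G45, HuR replicate 2 and Total, where counts under 5 are reads too few for a site. METTL27, a methyltransferase-like gene, had 5079 against 4, 46, 30, 57 and 14, and RPE65, the isomerase of the retinal visual cycle, 3402 against 89, 156, 311, 121 and 7. The METTL27 locus kept a rate of 26.7 to 33.3 events per 100 reads in the 4 immunoprecipitated libraries that held it.

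Most antisense sites had no reads on the coding strand at the same place. The same share was not counted over the reference windows, so whether it is particular to antisense sites was not tested. No read of any count lay on the coding strand across the site at 79.8% of antisense sites in G20, 97.5% in G35, 95.5% in G45, 92.1% in HuR replicate 1, 92.7% in HuR replicate 2 and 70.9% in Total. Coding reads equalled or outnumbered antisense reads at 0.302% (HuR replicate 1) to 6.81% (Total) of sites. G20 and Total, the libraries with the most sense coding sites per antisense site, thus had the most overlap.

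Of 18500 protein-coding genes with coding exons that have no gene opposite, 5102 (27.6%) had an antisense site in at least 1 library. There were 577 such genes in G20, 1067 in G35, 981 in G45, 1254 in HuR replicate 1, 3363 in HuR replicate 2 and 629 in Total. In the same library, 55.3%, 68.4%, 75.3%, 86.5%, 43.8% and 35.1% of them had no sense coding site. Over all 18500 genes the shares without a sense coding site were 68.1%, 79.5%, 84.0%, 92.5%, 57.4% and 45.6%. Genes with an antisense site therefore lacked a sense site less often than all genes in 6 of 6 libraries, a description for which no test was run. Coding length was not taken into account, and genes with more coding sequence have more room for a site on either strand.

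Families of genes were counted against the same 27.6%. Antisense sites lay opposite 6 of 82 cytosolic ribosomal protein genes (7.32%), 4 of 53 replication-dependent histone genes (7.55%), 137 of 520 C2H2 zinc finger genes (26.3%), 27 of 43 collagen genes (62.8%) and 14 of 52 protocadherin genes (26.9%). Of 1792 genes with a single coding exon, 228 (12.7%) had one. Since long genes offer more exon, loci per kb of coding sequence were also counted, with 0.137 for ribosomal protein genes, 0.234 for histone genes, 0.203 for zinc finger genes, 0.206 for collagen genes, 0.121 for protocadherin genes and 0.242 for all genes. Collagen genes were thus above all genes in share and below them per kb.

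Ribosomal protein genes were the plainest case of strand inequality. Total had 55004 sense coding reads over the 82 genes and 8 antisense reads, G20 had 17559 and 0, and HuR replicate 2 had 2156 and 15. HuR replicate 1 had 49 and 18. For zinc finger genes, the ratio ran from 212 antisense reads against 51277 sense reads in Total to 5602 against 738 in HuR replicate 1. Antisense reads of this family outnumbered sense reads in that library and in G45 (1138 against 930), and in no other.

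At the threshold, the members just inside and outside were alike in length. There were 165, 274, 256, 206, 1498 and 228 antisense sites with exactly 5 reads from G20 to Total, and 327, 346, 392, 368, 1915 and 421 such rows with 4 reads, with median lengths that differed by at most 4 bases.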

How the data were processed

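The authors trimmed adapters, aligned single reads to hg19 with Bowtie (at most 2 mismatches, best stratum) and ran PARalyzer, which kept uniquely mapping reads without mismatches other than T-to-C. The deposited group tables give, per site, whole-number counts of reads, conversion locations and conversion events, with no normalization, and each file holds 1 library. Removal of duplicates is not given in the sources used here. Here sites were placed by coordinates (1-based, hg19) against GENCODE release 44 mapped to GRCh37. The mitochondrial genome, whose sequence differs between hg19 and GRCh37, was kept apart. Strands were compared as the tables give them. Members, lists and rules were chosen with earlier results of these data known.

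Named were the 10 genes with the highest mean antisense level in reads per 1000000 reads (RPM), the 5 loci in most libraries (ties by the highest lowest-library level), the deepest antisense site of each library, the 5 genes with the most loci, and list members where counted. Upstream genes and loci of over 30 bases were named after their values were seen. RPM values are relative to all reads in a library's group table (6187300 to 38644636).

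Differences between antisense and sense sites used exact two-sided sign-flip permutation over the 6 libraries (smallest p 0.03125), and slices against HuR an exact two-sided permutation of 3 against 2, with Benjamini-Hochberg adjustment over 5 and 2 measures. Shares have 95% Wilson intervals. Other counts are descriptions. The interval, selection and test code was tested on simulated data. Alternatives were the read minimum, the overlap, the annotation, cluster tables, leading sites and left-out libraries. The tools were Python 3.11.15, NumPy 2.4.6, pandas 2.3.3, SciPy 1.17.1, pysam 0.24.0, samtools 1.23.1 and matplotlib 3.10.9.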

Additional observations from a re-analysis of the deposited data

Results flagged for a closer look

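The difference in G content between antisense and sense coding sites had opposite signs in the control slices and in Total. The G20 value was 3.48 percentage points, the G35 value 3.07 and the G45 value 1.53, against -2.95 for Total. It drew attention because every slice moved one way and the Total library the other, and this difference between groups was not tested, since Total is 1 library. The sign in Total did not hold within length classes. Antisense sites of Total had more G than sense sites at up to 15 bases (27.3% and 12.3%), 16 to 20 (14.4% and 9.12%), 31 to 40 (25.5% and 22.9%) and over 40 (30.5% and 27.5%). They had less at 21 to 25 bases (12.8% and 13.7%) and 26 to 30 (17.4% and 19.3%).

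Reads antisense to mitochondrial coding sequence, which entered no comparison above, numbered 4521 in G20, 537 in G35, 715 in G45, 541 in HuR replicate 1, 1633 in HuR replicate 2 and 38639 in Total. Per 100 sense mitochondrial coding reads this was 20.5, 35.0, 31.5, 29.7, 22.6 and 2.66. These counts are above the 3 reads that a count of 0 allows. The mitochondrial sequence of hg19 differs from that of the annotation, so positions are not given.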

How the results depend on the processing

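Of 90 values recomputed under an alternative, 84 kept their direction, or stayed within 1.5 times for the count of loci. None of the 7 tested differences passed the threshold after adjustment in any alternative run (exact permutation tests). Unadjusted, 1 of the 7, the median length, was under 0.05 as reported. However, 3 libraries against 2 (smallest p 0.1) and 5 pairs (0.0625) could not pass it. With 6 pairs, a measure alone at the smallest p of the exact permutation test (0.03125) becomes 0.156 after adjustment and could not pass either. The lack of a pass thus says nothing of the stability of these differences. The share of sites, slices minus HuR, turned from 0.216 percentage points to -0.357 without HuR replicate 2 (0.789 without HuR replicate 1). The antisense reads per 100 sense reads, slices minus HuR, turned from -18.3 to 13.5 without HuR replicate 1 (-50.2 without HuR replicate 2) and to 12.8 with the cluster tables, sites that the authors' caller kept for their conversions. The 891 loci in 2 or more libraries became 210 with a minimum of 25 reads, 451 with the cluster tables and 189 with sites over 20 bases only, an alternative chosen after seeing the data, as was leaving out Total (770). Each of these keeps fewer sites, and as a share of loci the 210 were 30.3%, compared to 11.4%. Without 1 HuR replicate the count was 659 (17.9%) to 748 (10.8%). The 6 libraries, of which 4 are alone in their group, set the limit: a difference between a slice and Total has no replicate check, sites near 5 reads can be missed in a shallower library, and the 12 to 51 long antisense sites of G35, G45 and HuR replicate 1 give wide intervals. Groups could not be blocked by replicate number, which only HuR carries.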

Other observations

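The authors' own annotation listed nearly all of these sites as intergenic, although each lay opposite a coding exon. The rule kept only sites without a gene on their own strand, so this label is not an independent observation. The same shares over all sites of these libraries were not counted. In the tables with a location column, 95.9% of the antisense sites of G20, 98.0% of those of G35, 98.7% of G45, 98.6% of HuR replicate 1 and 97.8% of HuR replicate 2 were listed as intergenic. Sites listed as repeats were 14, 14, 4, 10 and 59 in the same libraries.

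The antisense sites of the slices, which share a control, differed in length composition. In G20, 29.9% of antisense sites were over 30 bases long, compared to 4.64% in G35 and 3.42% in G45. Over this length G20 had 0.675 antisense reads per 100 sense coding reads, G35 had 1.49, G45 had 1.62, HuR replicate 1 had 2.57, HuR replicate 2 had 3.28 and Total had 0.121. Total was the lowest and G20 the next for long sites as for all sites, and HuR replicate 2 in place of HuR replicate 1 was the highest.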
